A study of Homo sapiens with 18 samples.

Results

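The 9 genes EGFR, ERBB3, ERBB4, NRG1, NRG2, AREG, EREG, TGFA and BTC, 3 of the receptors of the epidermal growth factor family and 6 of their ligands, were described by the TLE3 and FOXA1 peaks in and around them, out of 19974 protein-coding genes in the annotation. A peak was assigned to a gene when its centre lay in the gene body or within 50 kb of it on either side, and 1547 of the 1134194 peaks used (0.136%) met this rule, without reference to any peak's height or line. Chromatin immunoprecipitation followed by sequencing (ChIP-seq) had been done in 3 human breast cancer lines, T47D, SKBR3 and MDA-MB-453, for which the labels name no modification or treatment, with 2 replicates of TLE3 and 2 of FOXA1 in each line. T47D is an oestrogen receptor positive luminal line, SKBR3 carries an amplified ERBB2 gene, and MDA-MB-453 is a luminal line with androgen receptor. Cells for TLE3 received a protein crosslinker before formaldehyde that cells for FOXA1 did not, so the factor compared and the fixation cannot be told apart.

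ERBB receptors are tyrosine kinases at the cell surface that pair with each other once a ligand binds. AREG, EREG, TGFA and BTC bind EGFR, BTC and EREG bind ERBB4 as well, and the neuregulins NRG1 and NRG2 bind ERBB3 and ERBB4; the ligands are made as membrane precursors and most are released by proteases. ERBB3 has an impaired kinase and signals through its partners, above all ERBB2, which binds no known ligand. FOXA1 is a forkhead transcription factor that opens chromatin in luminal breast cells, and TLE3 is a Groucho family corepressor that does not bind DNA itself and is brought to it by transcription factors. A peak shows where a factor was recovered, and not whether the gene nearby was expressed.

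The lists held 30170 and 61391 TLE3 peaks in T47D, 21149 and 94363 in SKBR3 and 42698 and 22706 in MDA-MB-453, and between 107598 and 188029 FOXA1 peaks. The library labelled SKBR3 TLE3 replicate 2 stood apart, with a median peak width of 629 bp against 326 to 432 bp in the other 11 libraries, and only 21.7% of its peaks overlapped an SKBR3 FOXA1 site against 93.5% for replicate 1. The SKBR3 TLE3 replicates are therefore given one by one. Read depth is not in peak lists, so values are given as peaks per 10000 peaks of the list, and a site is a merged region with a peak of both replicates. All 8 luminal marker genes (KRT8, KRT18, KRT19, GATA3, ELF3, SPDEF, EPCAM, CDH1) had a FOXA1 site in their window in each line, and of the 3 basal ones (KRT5, KRT14, TP63) 3 did in T47D, 3 in SKBR3 and 2 in MDA-MB-453. Between 89.8% and 95.1% of all protein-coding genes had such a site in each line. Presence of a site therefore cannot separate luminal from basal genes.

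Start regions are shown first for the 4 members in which T47D TLE3 had a site within 1 kb of an annotated start, out of 7 members with a start in the RefSeq promoter table (GRCh38.p14, the build of the files); ERBB3 and NRG1 are named only. Each line gives the 250 bases before the start on the coding strand, 5′ to 3′, with matches to the forkhead motifs TGTTTAC and TATTTAC, the AP-1 motif TGANTCA or the cyclic AMP response element TGACGTCA in capitals (both strands were searched, and the motifs do not overlap here).
BTC, minus strand, chr4:74794524-74794773: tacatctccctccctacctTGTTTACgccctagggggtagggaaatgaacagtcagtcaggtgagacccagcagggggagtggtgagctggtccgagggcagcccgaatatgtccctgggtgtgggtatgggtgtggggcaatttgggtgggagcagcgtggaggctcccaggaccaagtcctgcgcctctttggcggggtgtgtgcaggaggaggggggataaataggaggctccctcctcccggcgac
AREG, plus strand, chr4:74444886-74445135: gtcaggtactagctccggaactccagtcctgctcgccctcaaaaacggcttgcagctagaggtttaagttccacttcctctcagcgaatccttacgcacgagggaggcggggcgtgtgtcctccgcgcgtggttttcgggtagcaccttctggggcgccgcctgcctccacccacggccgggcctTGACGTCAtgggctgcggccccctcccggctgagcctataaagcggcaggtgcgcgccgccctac
TGFA, minus strand, chr2:70553827-70554076: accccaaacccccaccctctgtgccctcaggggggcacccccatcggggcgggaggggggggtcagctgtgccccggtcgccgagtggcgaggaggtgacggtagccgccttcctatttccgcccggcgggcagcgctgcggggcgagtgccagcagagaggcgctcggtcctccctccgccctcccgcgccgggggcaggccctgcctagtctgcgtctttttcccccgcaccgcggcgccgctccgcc
ERBB4, minus strand, chr2:212538803-212539052: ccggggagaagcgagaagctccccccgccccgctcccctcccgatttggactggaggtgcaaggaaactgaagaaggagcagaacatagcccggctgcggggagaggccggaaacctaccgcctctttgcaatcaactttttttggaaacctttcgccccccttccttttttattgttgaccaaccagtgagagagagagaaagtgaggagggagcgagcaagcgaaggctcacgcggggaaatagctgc
The BTC sequence holds TGTTTAC beginning at position -231, a motif found in 2.98% of 34961 promoter sequences of the same length, and the AREG sequence holds TGACGTCA beginning at position -65, found in 1.65%. No match to the 4 motifs lies in these letters of TGFA and ERBB4; TATTTAC was found in 2.40% and TGANTCA in 6.54% of promoter sequences. A match is a description of the letters and not a measured site.

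All 9 members had a FOXA1 site in every line, where 95.0% of protein-coding genes had one in T47D, 89.8% in SKBR3 and 95.1% in MDA-MB-453. A TLE3 site was present for 8 of 9 members in T47D, all but NRG2, against 74.7% of genes. In SKBR3, 4 of 9 members had a TLE3 peak of both replicates (35.3% of genes), 6 had one in replicate 1 alone (57.3%) and 9 in replicate 2 alone (96.5%). MDA-MB-453 had a TLE3 site for 7 of 9 members, all but EREG and TGFA, against 55.3%. With 9 genes these shares lie close enough to the background that presence of a site says little about the family; number, position and rank of the sites differed more among members.

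**Figure D1:**
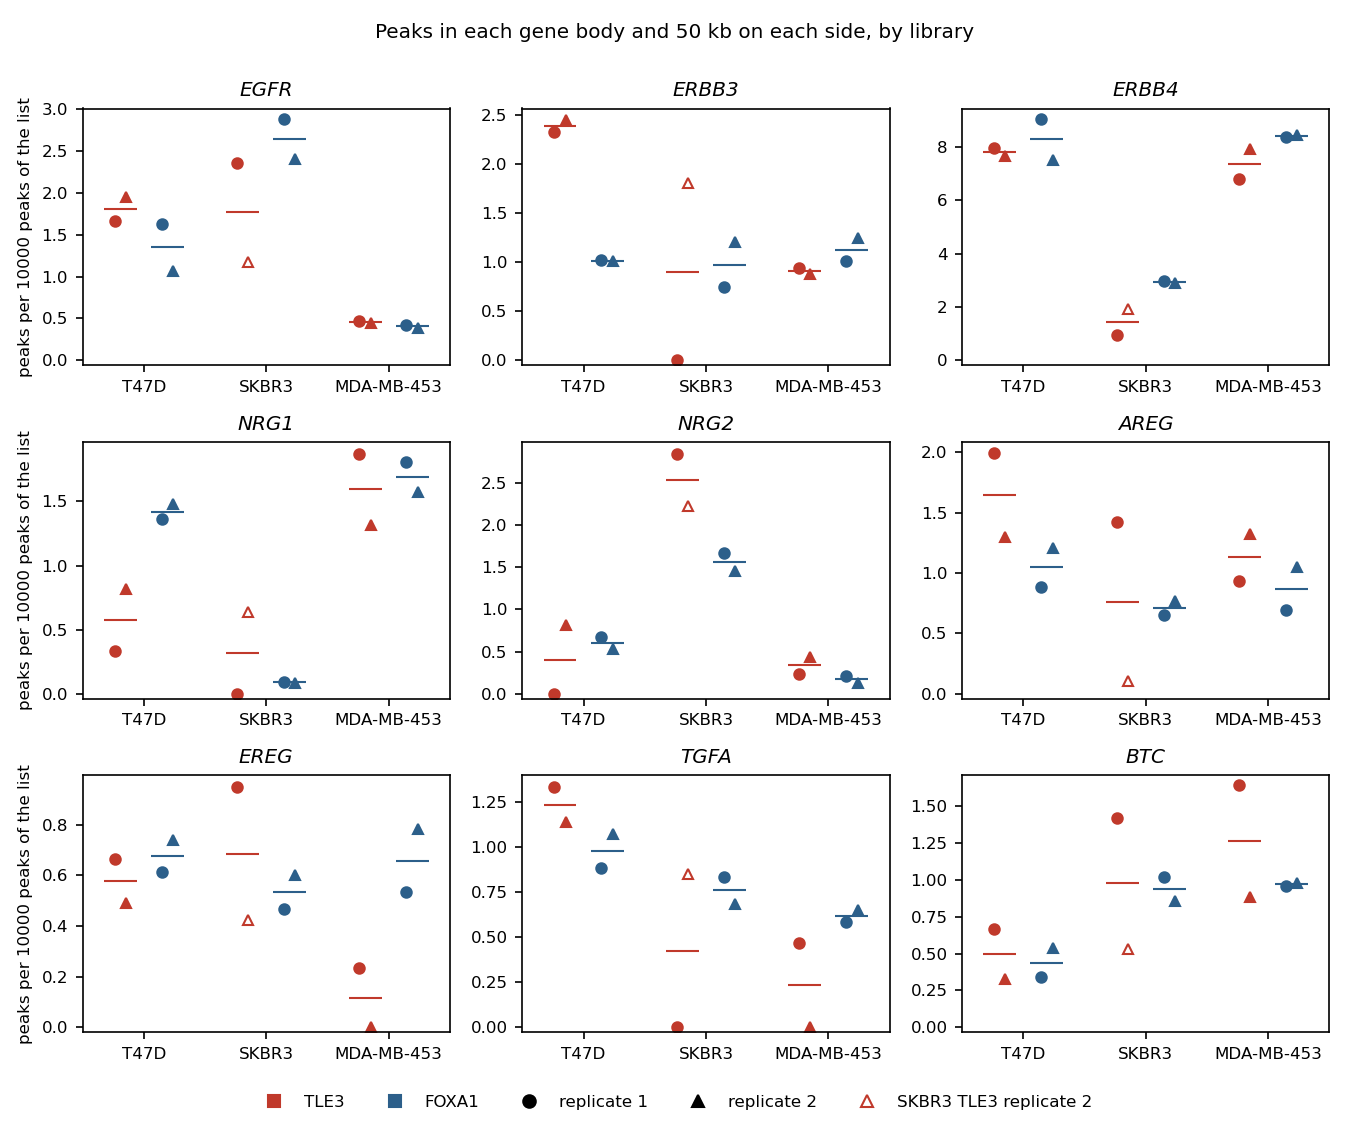
Peaks per 10000 peaks of the list (vertical axis) in the window of each member, by line; red stands for TLE3 and blue for FOXA1, circles for replicate 1, triangles for replicate 2 (open for SKBR3 TLE3) and bars for means. FOXA1 points of EGFR and NRG2 are highest in SKBR3, at 2.40 to 2.88 and 1.46 to 1.67, and those of ERBB4 and NRG1 lowest there, at 2.91 to 2.97 and 0.0856 to 0.0929.

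EGFR, the receptor of AREG, EREG, TGFA and BTC, spans chr7:55019017-55211628 on the plus strand. Its window held 24 and 16 FOXA1 peaks in T47D, 31 and 28 in SKBR3, and 8 and 6 in MDA-MB-453. Per 10000 peaks these were 1.63 and 1.07 in T47D, 2.88 and 2.40 in SKBR3, and 0.425 and 0.392 in MDA-MB-453. The lines did not overlap, with SKBR3 highest and MDA-MB-453 lowest. SKBR3 exceeded MDA-MB-453 by 2.61 ± 0.19 (log2 difference and SE, limma, adjusted p = 7.57e-06, n = 2 each), a 6.10-fold difference in peak share. T47D exceeded MDA-MB-453 by 1.63 ± 0.19 (limma adjusted p = 0.000333) and lay 0.98 below SKBR3 (log2 difference -0.98 ± 0.19, limma adjusted p = 0.00249).

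The EGFR window held 15 FOXA1 sites in T47D, 26 in SKBR3 and 6 in MDA-MB-453. Of 31 merged FOXA1 regions 16 were sites of SKBR3 alone, 5 were shared by T47D and SKBR3, 4 were common to the 3 lines and none belonged to MDA-MB-453 alone. TLE3 gave 5 sites in T47D and 1 in MDA-MB-453, with 5 and 11 peaks in SKBR3 replicates 1 and 2. The region chr7:54987551-54989277, about 30.6 kb before the start and in no annotated gene, carried a peak in 11 of 12 libraries, SKBR3 TLE3 replicate 2 being the exception. It ranked at the 96.4 and 99.0 percentile of the 2 TLE3 lists of T47D, at 99.8 in SKBR3 TLE3 replicate 1, and at 91.5 and 86.1 in MDA-MB-453. Its FOXA1 peaks ranked at 98.6 and 98.2 in T47D, 98.6 and 99.3 in SKBR3, and 93.6 and 91.6 in MDA-MB-453, so the line with the fewest EGFR sites had its best one here. The percentile is the rank of a score, counted from the lowest, as a percent of the list length. A single value for a site is the mean over both replicates of the best percentile in it. The region is made of neighbouring peaks. T47D had 2 TLE3 sites in it (mean percentiles 97.7 and 92.1), and the MDA-MB-453 TLE3 site (88.8) overlapped the second of them. By contrast chr7:55048065-55048866, inside the gene body, had FOXA1 peaks in T47D (87.4 and 88.9) and SKBR3 (98.5 and 98.6), a TLE3 peak in SKBR3 replicate 1 (65.0) and none in MDA-MB-453; this region was picked out after its values were seen.

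**Figure D2:**
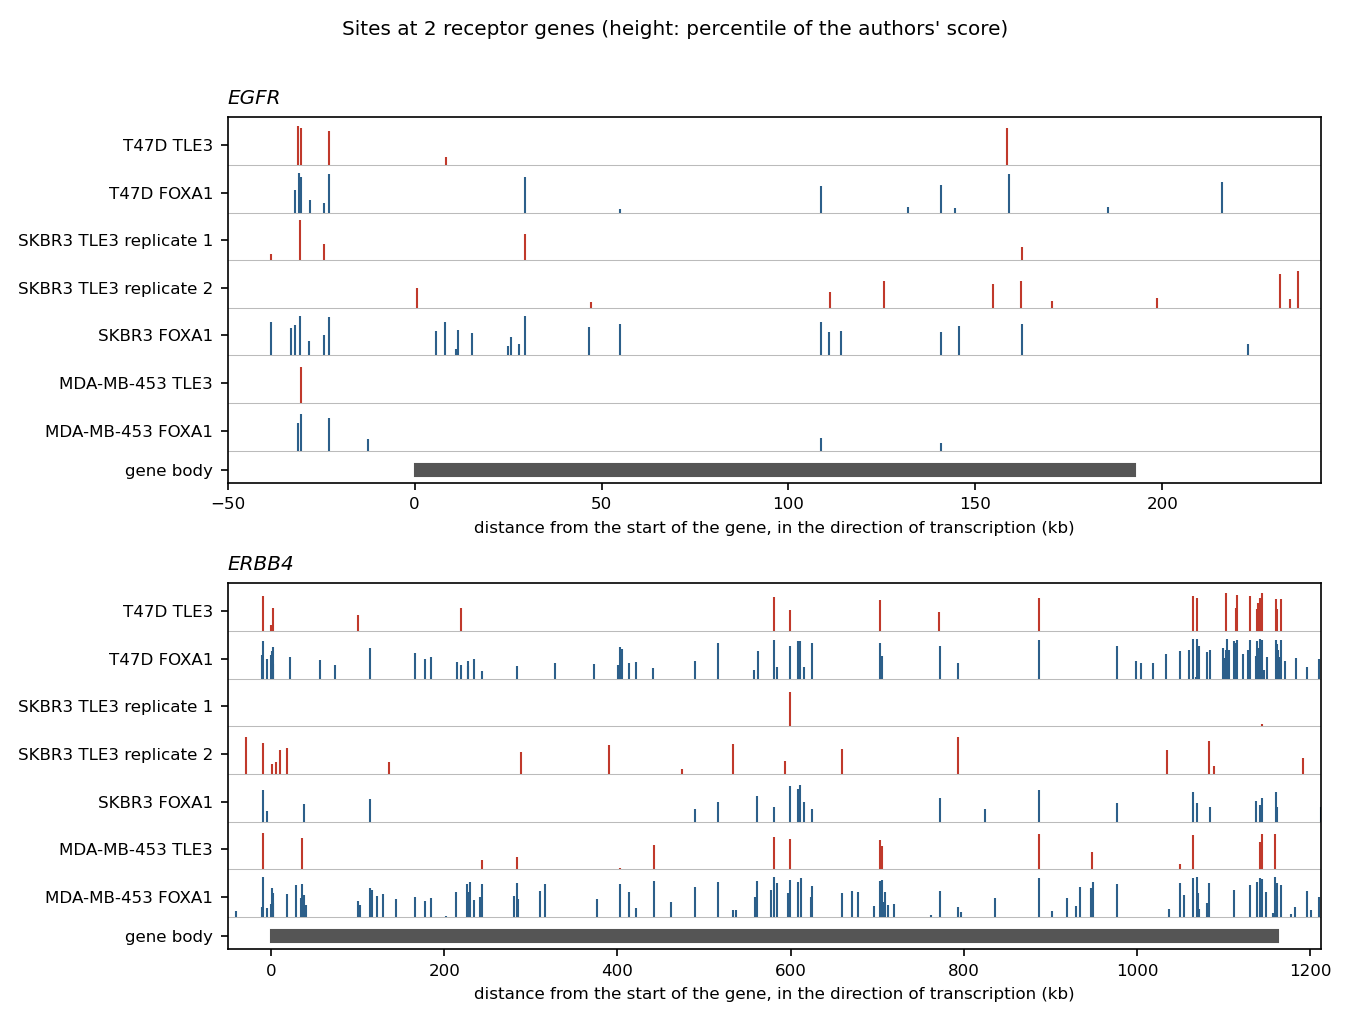
Sites along EGFR and ERBB4, plotted as distance from the start of the gene (kb, horizontal axis) with 1 row for each line and factor; the height of a line is the percentile of the authors' score within its list and the grey bar is the gene body. EGFR has 26 FOXA1 sites in SKBR3 and 6 in MDA-MB-453, and T47D sites of ERBB4 gather beyond 1000 kb, with 38 of 86 for FOXA1 and 13 of 23 for TLE3.

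ERBB4, a neuregulin receptor whose body of 1163 kb at chr2:211375717-212538802 runs on the minus strand, differed from EGFR in the order of the lines. FOXA1 gave 133 and 112 peaks in T47D, 32 and 34 in SKBR3, and 157 and 129 in MDA-MB-453. The peak share was 9.03 and 7.52 per 10000 in T47D, 2.97 and 2.91 in SKBR3, and 8.35 and 8.43 in MDA-MB-453. SKBR3 was low in both replicates, while the T47D values lay on either side of those of MDA-MB-453. The log2 difference was -1.49 ± 0.09 for SKBR3 minus MDA-MB-453 (limma adjusted p = 2.64e-06) and 1.47 ± 0.09 for T47D minus SKBR3 (limma adjusted p = 3.79e-06). T47D minus MDA-MB-453 gave -0.03 ± 0.09, which did not pass (limma adjusted p = 0.860).

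The sites of ERBB4 were also counted by distance from the start, which was not among the counts planned and was not tested. In T47D 38 of 86 FOXA1 sites (44.2%) and 13 of 23 TLE3 sites (56.5%) lay 1000 to 1213 kb from the start, around the 3′ end of the gene. SKBR3 had 9 of 26 FOXA1 sites there (34.6%), and MDA-MB-453 25 of 106 (23.6%) with 5 of 17 TLE3 sites (29.4%). Of 140 merged FOXA1 regions 22 were common to the 3 lines, 31 were shared by T47D and MDA-MB-453 without SKBR3, and 2 were sites of SKBR3 alone. The region chr2:211392887-211394996, in the gene body 18.2 kb from its lower end, ranked at 93.6 and 95.7 for TLE3 and 99.2 and 97.9 for FOXA1 in T47D. In SKBR3 it ranked at 6.01 for TLE3 replicate 1 and at 46.8 and 71.2 for FOXA1, and in MDA-MB-453 at 91.1 and 84.3 for TLE3 and 95.4 and 94.9 for FOXA1. A region near the middle of the gene, chr2:211938502-211939778, ranked higher in SKBR3 than in T47D. FOXA1 stood there at 81.3 and 81.9 in T47D, 88.2 and 89.9 in SKBR3, and 94.1 and 91.7 in MDA-MB-453, and TLE3 at 62.6 and 43.4 in T47D, 86.8 in SKBR3 replicate 1, and 89.0 and 61.3 in MDA-MB-453.

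At the ERBB4 start T47D had a TLE3 site 118 bp and a FOXA1 site 343 bp from it, ranked at 15.6 and 60.9, and MDA-MB-453 had a FOXA1 site alone. The 250 bases printed above were overlapped by a peak in 6 libraries, 4 of them the T47D libraries.

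ERBB3, the kinase-impaired receptor of the neuregulins, is a short gene (chr12:56080108-56103505), and its window also holds other genes. FOXA1 gave 15 and 15 peaks in T47D, 8 and 14 in SKBR3, and 19 and 19 in MDA-MB-453, or 1.02 and 1.01, 0.744 and 1.20, and 1.01 and 1.24 per 10000. These groups overlapped. None of the 3 FOXA1 line differences passed as fitted (log2 -0.14 ± 0.21 for T47D minus MDA-MB-453, limma adjusted p = 0.660). TLE3 gave 7 and 15 peaks in T47D against 4 and 2 in MDA-MB-453, or 2.32 and 2.44 against 0.937 and 0.881 per 10000, with 0 and 17 peaks in SKBR3. Both T47D values lay above both of MDA-MB-453, by 1.22 ± 0.37 on the log2 scale (limma adjusted p = 0.00870). This holds for the window and not for the gene body, which held 1 of 7 TLE3 sites in T47D and 2 of 2 in MDA-MB-453.

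The factors were compared between these lines for ERBB3 directly: TLE3 minus FOXA1 was larger in T47D than in MDA-MB-453 by 1.35 ± 0.37 (limma interaction, adjusted p = 0.0206, 8 libraries), where 7.89% of 18882 genes passed (6.74% higher, 1.15% lower). The other 8 members did not pass this test, though NRG1 did without T47D TLE3 replicate 2 (-1.58, limma adjusted p = 0.00308) and by median ratio (-1.43, 0.0461), NRG2 without T47D TLE3 replicate 2 (-3.23, 0.00468), and TGFA without MDA-MB-453 TLE3 replicate 1 (1.98, 0.00582). Each of these fits without a library leaves 1 library in that group, which is assumed to vary like the other groups. The ERBB3 call was lost without any one of the 4 FOXA1 libraries (log2 1.20 to 1.50, adjusted p from 0.0841 to 0.172) and in windows of 10 kb (0.31, adjusted p = 0.802). It was also lost by median ratio (1.08, adjusted p = 0.0693), with a prior of 2 peaks (0.98, 0.205), among the higher-scored 50% of peaks (1.04, 0.218) and in equally long lists (1.00, 0.268).

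All 7 T47D TLE3 sites of the ERBB3 window overlapped a FOXA1 site, and so did both of MDA-MB-453. At the lower end of the gene the sites of the lines differed in position. The T47D TLE3 site, chr12:56079414-56080443, had a mean percentile of 76.8, and the MDA-MB-453 one, chr12:56080806-56081120, 19.1; they do not overlap. FOXA1 sites over the T47D position ranked at 70.4 in T47D, 49.8 in SKBR3 and 33.6 in MDA-MB-453, and the MDA-MB-453 TLE3 site lay under another FOXA1 site of that line, at 85.8. SKBR3 TLE3 replicate 2 had a peak over the T47D position at 92.9. In the next region of the gene body, chr12:56081671-56082555, TLE3 was a site in MDA-MB-453 (71.9 and 61.4) and had a peak in 1 of the T47D libraries (51.2). The highest FOXA1 site of the window in each line, chr12:56125953-56127116, lay in the body of another gene, ZC3H10. Of 14 FOXA1 regions 6 (42.9%) were common to the 3 lines, the highest share among the members, against 22.2% of 195822 regions over the genome.

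NRG1, a ligand of ERBB3 and ERBB4, is a gene of 1135 kb at chr8:31639245-32774046. FOXA1 gave 20 and 22 peaks in T47D, 1 and 1 in SKBR3, and 34 and 24 in MDA-MB-453. Per 10000 peaks this was 1.36 and 1.48 in T47D, 0.0929 and 0.0856 in SKBR3, and 1.81 and 1.57 in MDA-MB-453, so SKBR3 lay far below both other lines. The log2 difference was -3.68 ± 0.18 for SKBR3 minus MDA-MB-453 (limma adjusted p = 6.41e-07) and 3.44 ± 0.18 for T47D minus SKBR3 (limma adjusted p = 1.31e-06), 12.8-fold and 10.8-fold differences fitted with a prior of 0.5 peaks. With 1 peak in each SKBR3 list the size of the fold is less certain than its direction. TLE3 gave 1 and 5 peaks in T47D, 0 and 6 in SKBR3, and 8 and 3 in MDA-MB-453.

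The single SKBR3 FOXA1 site of NRG1 fell in chr8:32353469-32354286, inside the gene body 420169 bp from its upper end, where it ranked at 44.8 and 50.2. In T47D this region ranked at 96.1 and 98.4 for TLE3 and 99.3 and 98.6 for FOXA1. In MDA-MB-453 it ranked at 99.2 and 96.9 for TLE3 and 99.9 and 99.8 for FOXA1, among the highest scored peaks of those lists. It was the one TLE3 site of NRG1 in T47D and the best of 3 in MDA-MB-453.

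NRG2, the other neuregulin among the members, lies at chr5:139846781-140043299 on the minus strand and had the opposite order of lines. FOXA1 gave 10 and 8 peaks in T47D, 18 and 17 in SKBR3, and 4 and 2 in MDA-MB-453, or 0.679 and 0.537, 1.67 and 1.46, and 0.213 and 0.131 per 10000. No 2 lines overlapped. SKBR3 exceeded MDA-MB-453 by 3.02 ± 0.24 on the log2 scale (limma adjusted p = 1.15e-05), and T47D exceeded MDA-MB-453 by 1.69 ± 0.24 (limma adjusted p = 0.000860). T47D minus MDA-MB-453 was lost when 50% of the peaks, those with the higher scores, were used (0.56, adjusted p = 0.185). T47D minus SKBR3 was -1.33 ± 0.24 (limma adjusted p = 0.00147).

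TLE3 at NRG2 gave 0 and 5 peaks in T47D, 6 and 21 in SKBR3, and 1 and 1 in MDA-MB-453. Of 19 merged FOXA1 regions 12 (63.2%) were sites of SKBR3 alone, and none was common to the 3 lines. The SKBR3 FOXA1 sites were of middling rank, with a median percentile of 56.3 and a best of 83.2 at chr5:139942380-139943031 in the gene body.

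**Figure D3:**
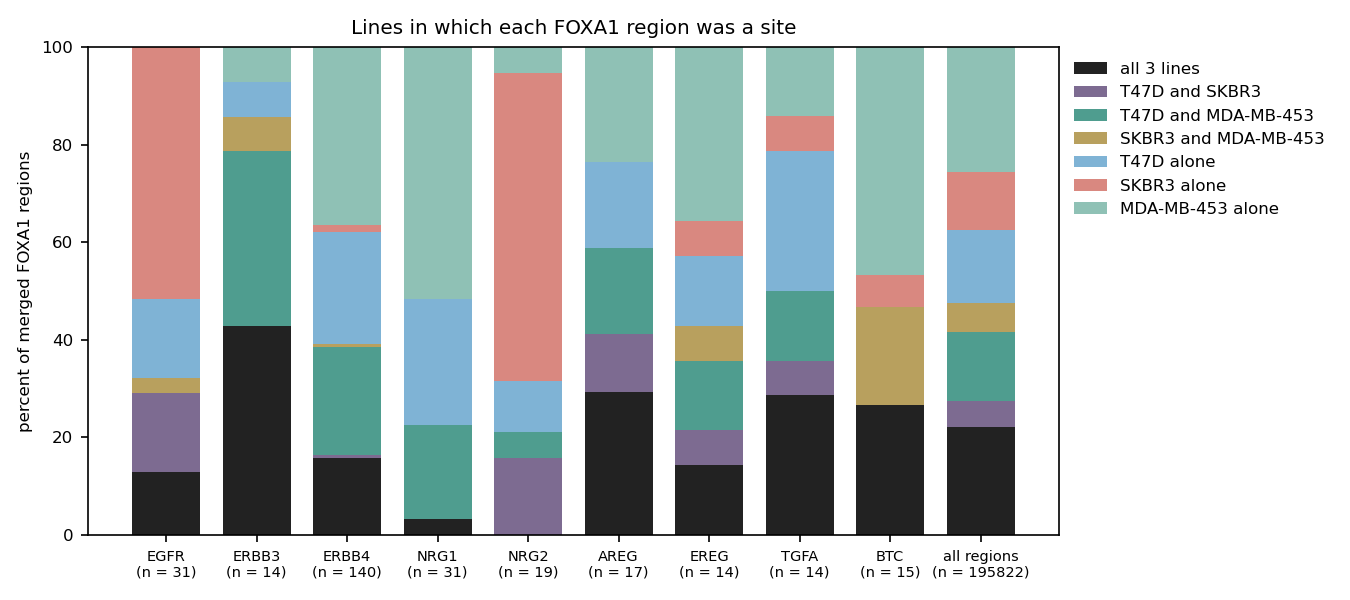
Percent of merged FOXA1 regions (vertical axis) by the lines in which the region was a site, for each member and for all regions of the genome; n is the number of regions. SKBR3 alone accounts for 51.6% at EGFR and 63.2% at NRG2 against 11.9% of all regions, and for 1.43% at ERBB4 and 0.0% at NRG1.

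The other 4 ligands bind EGFR. AREG, amphiregulin, at chr4:74445136-74455005 on the plus strand, had 13 and 18 FOXA1 peaks in T47D, 7 and 9 in SKBR3, and 13 and 16 in MDA-MB-453, or 0.883 and 1.21, 0.651 and 0.771, and 0.691 and 1.05 per 10000. T47D and MDA-MB-453 overlapped, and no FOXA1 line difference of AREG passed as fitted. T47D minus SKBR3 (0.50 ± 0.22, limma adjusted p = 0.0943) passed with the replicate number as a block (0.50, limma adjusted p = 0.0300) and without T47D FOXA1 replicate 1 (0.72, limma adjusted p = 0.0350). TLE3 gave 6 and 8 peaks in T47D, 3 and 1 in SKBR3, and 4 and 3 in MDA-MB-453. T47D TLE3 sites stood at 5.46 per 100 kb of window, at the 97.7 percentile of protein-coding genes. The AREG density was at 95.9 in MDA-MB-453, and at 90.5 and 5.45 with SKBR3 replicates 1 and 2 alone. ERBB3 stood higher in T47D, at 98.1.

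Beyond the end of AREG lay a pair of regions with TLE3 and FOXA1 peaks in 11 libraries each, SKBR3 TLE3 replicate 2 again lacking them. At chr4:74480040-74481604, 25.8 kb past the gene, FOXA1 ranked between 97.2 and 98.7 in all 6 libraries. TLE3 ranked there at 75.9 and 90.5 in T47D, 76.9 in SKBR3 replicate 1, and 83.0 and 68.3 in MDA-MB-453. At chr4:74474539-74475961, 20.2 kb past the gene, TLE3 ranked at 89.7 and 96.0 in T47D, 76.9 in SKBR3 replicate 1, and 78.6 and 60.5 in MDA-MB-453. Neither region lies in an annotated gene body. At the AREG start, over the response element printed above, T47D had a TLE3 site (33 bp from the start, ranked at 42.7) with a FOXA1 site, and MDA-MB-453 a FOXA1 site without TLE3. SKBR3 TLE3 replicate 2 had a peak there at 67.6.

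EREG, epiregulin, neighbours AREG at chr4:74365145-74388749, and their windows share 43.6 kb, so 4 FOXA1 sites in T47D, 2 in SKBR3 and 5 in MDA-MB-453 count for both genes. FOXA1 gave 9 and 11 peaks in T47D, 5 and 7 in SKBR3, and 10 and 12 in MDA-MB-453, and no line difference passed as fitted. TLE3 was sparse, with 2 and 3 peaks in T47D, 2 and 4 in SKBR3, and 1 and 0 in MDA-MB-453. Both T47D TLE3 sites lay in the stretch shared with AREG and ranked low, the better at 24.7. No peak of any library overlapped the 250 bases before the EREG start.

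BTC, betacellulin, at chr4:74744759-74794523 on the minus strand, was the member with fewest FOXA1 sites in T47D. FOXA1 gave 5 and 8 peaks in T47D, 11 and 10 in SKBR3, and 18 and 15 in MDA-MB-453, or 0.339 and 0.537, 1.02 and 0.856, and 0.957 and 0.980 per 10000. T47D lay below both other lines in each replicate, by -1.11 ± 0.22 against MDA-MB-453 (log2, limma adjusted p = 0.00421) and -1.09 ± 0.22 against SKBR3 (limma adjusted p = 0.00266). The first was lost without MDA-MB-453 FOXA1 replicate 2 (-1.09, adjusted p = 0.0550) and both were lost in equally long lists (adjusted p = 0.0654 and 0.0879).

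The median FOXA1 percentile of BTC sites was 73.4 in T47D, 77.3 in SKBR3 and 71.4 in MDA-MB-453. At the start of the gene, chr4:74793930-74795084, FOXA1 ranked at 96.0 and 96.6 in T47D, 85.4 and 88.8 in SKBR3, and 94.7 and 91.4 in MDA-MB-453, over the printed sequence with its forkhead match. TLE3 had peaks there in both T47D libraries (29.7 and 66.2), in SKBR3 replicate 2 (75.5) and in 1 of the MDA-MB-453 libraries (39.1). Inside the gene, chr4:74768822-74769864 was the one region of all 9 windows with a peak in each of the 12 libraries. TLE3 ranked in it at 81.5 and 93.4 in T47D, 73.7 and 51.0 in SKBR3, and 78.7 and 69.7 in MDA-MB-453.

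TGFA, transforming growth factor alpha, at chr2:70447284-70553826 on the minus strand, had 13 and 16 FOXA1 peaks in T47D, 9 and 8 in SKBR3, and 11 and 10 in MDA-MB-453. Per 10000 these were 0.883 and 1.07, 0.836 and 0.685, and 0.585 and 0.653. T47D lay above MDA-MB-453 in both replicates, by 0.64 ± 0.18 (log2, limma adjusted p = 0.0246), a call lost without T47D FOXA1 replicate 2 (adjusted p = 0.140) or without MDA-MB-453 FOXA1 replicate 1 (0.135) or 2 (0.0802). TLE3 gave 4 and 7 peaks in T47D, 0 and 8 in SKBR3, and 2 and 0 in MDA-MB-453.

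At the TGFA start T47D had a TLE3 site, chr2:70553723-70554446, ranked at 75.5 and 81.7 and centred 258 bp before the start. It overlapped no FOXA1 site: FOXA1 had a peak there in 1 T47D library, at 25.1, and in no other. SKBR3 TLE3 replicate 2 also had a peak over this start, at the 84.4 percentile of its list, which is longer than both T47D TLE3 lists. The best T47D FOXA1 site of the gene, chr2:70556995-70557798, lay 3.57 kb before the start at the 96.9 percentile. TLE3 sites within 1 kb of a start were found for 4 of 7 members in T47D (TGFA, BTC, AREG and ERBB4), where 20.5% of 15812 genes had one. None was found with both replicates in SKBR3 (4.16% of genes), with SKBR3 replicate 1 alone (5.27%) or in MDA-MB-453 (3.62%), and SKBR3 replicate 2 alone gave 6 of 7 (56.9%). FOXA1 sites within 1 kb were found for 3 of 7 members in T47D (39.2% of genes), 1 in SKBR3 (23.2%) and 3 in MDA-MB-453 (44.5%). The T47D TLE3 lists had peaks over 11.6% and 29.4% of all promoter sequences against 5.17% and 1.68% in the MDA-MB-453 ones; the part of this in the members' difference was not tested.

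**Figure D4:**
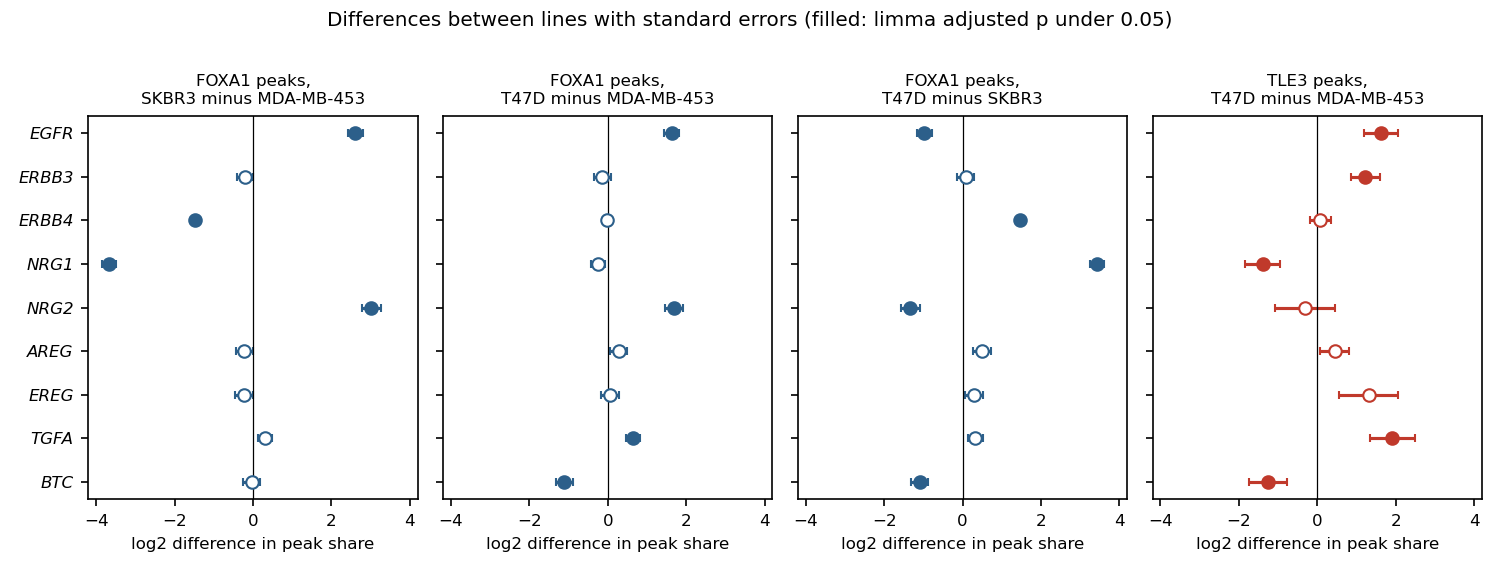
Log2 differences between lines in peak share (horizontal axis) with standard errors for the 9 members, for FOXA1 in 3 contrasts and TLE3 in 1; filled points passed limma at an adjusted p of 0.05. EGFR and NRG2 lie to the right and ERBB4 and NRG1 to the left in SKBR3 minus MDA-MB-453, at 2.61, 3.02, -1.49 and -3.68.

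Over the FOXA1 contrasts 4 of 9 members passed in T47D minus MDA-MB-453 (EGFR, NRG2 and TGFA higher, BTC lower), where 28.1% of 19175 genes did (15.9% higher, 12.2% lower). In SKBR3 minus MDA-MB-453 4 of 9 passed (EGFR and NRG2 higher, NRG1 and ERBB4 lower), where 45.2% did (25.1% higher, 20.1% lower). In T47D minus SKBR3 5 of 9 passed (NRG1 and ERBB4 higher, EGFR, NRG2 and BTC lower), where 41.5% did (20.0% higher, 21.5% lower). These 3 contrasts share libraries. The shares are near those of all genes, so what the members show is which of them moved and by how much.

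For TLE3, T47D minus MDA-MB-453 passed in 5 of 9 members, where 20.4% of 15709 genes did (16.4% higher, 4.02% lower) and the median of all genes was 0.39. EGFR with 5 and 12 against 2 and 1 peaks (1.63 ± 0.44, limma adjusted p = 0.00318), ERBB3 and TGFA (1.91 ± 0.57, limma adjusted p = 0.00825) were higher in T47D. NRG1 (-1.39 ± 0.44, limma adjusted p = 0.0138) and BTC (-1.26 ± 0.49, limma adjusted p = 0.0481) were lower. Scaled so that the median gene did not move, the differences were 1.43, 1.01, 1.71, -1.60 and -1.46 for EGFR, ERBB3, TGFA, NRG1 and BTC, and all 5 still passed. Each rests on few peaks: all 5 were lost with a prior of 2 peaks (adjusted p from 0.120 to 0.257), and each was lost without at least 1 of the TLE3 libraries, among them T47D replicate 1 for all 5 and T47D replicate 2 for all but NRG1 (adjusted p from 0.128 to 0.423 without replicate 1). BTC was also lost with the replicate number as a block (adjusted p = 0.0809). ERBB4 did not pass, with 7.95 and 7.66 per 10000 in T47D against 6.79 and 7.93 in MDA-MB-453 (0.08 ± 0.26, limma adjusted p = 0.867).

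Between the factors, no member passed in TLE3 minus FOXA1 over the 12 libraries with line as a covariate, where 16.2% of 18990 genes did (14.4% higher, 1.86% lower). Both SKBR3 TLE3 replicates entered this fit alike, although replicate 2 stood apart. Before adjustment 1 member, ERBB4, fell under 0.05 (limma, unadjusted value 0.0495), as 5936 genes did. The members' log2 differences lay from -0.41 (TGFA) to 0.43 (NRG2) with a median of 0.17, against a median of 0.27 over all genes. Scaled by the median ratio, EGFR, ERBB3, NRG1, AREG and BTC turned to values below 0 (-0.18, -0.12, -0.15, -0.09 and -0.05), so no direction is given for them. AREG passed without the library labelled SKBR3 TLE3 replicate 2 (0.75, limma adjusted p = 0.0157), and ERBB4 passed as lower when scaled by the median ratio (-0.72, limma adjusted p = 0.0300). With a prior of 2 peaks ERBB3 (0.65), NRG2 (0.93) and BTC (0.60) passed as higher, where 75.5% of genes passed. The prior is added alike to every list, and each TLE3 list was shorter than each FOXA1 list. At an equal share it thus raises the TLE3 value more, so these calls cannot be read as a higher TLE3 share. The smaller prior of the fit as reported acts in the same direction. Without T47D TLE3 replicate 1 the NRG2 difference was 0.87 in the fit as reported. ERBB2, the partner receptor, did pass, at 1.22 ± 0.22 (limma adjusted p = 0.00164), with TLE3 sites numbering 11, 10 and 7 and FOXA1 sites 10, 23 and 18 in T47D, SKBR3 and MDA-MB-453.

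TLE3 sites in these windows mostly lay at FOXA1 sites, as over the genome, apart from the library labelled SKBR3 TLE3 replicate 2. In T47D 44 of 48 TLE3 sites overlapped a FOXA1 site (91.7%, exact 95% binomial interval 80.0 to 97.7), against 87.0% of all TLE3 sites. In SKBR3 this held for 19 of 20 TLE3 peaks of replicate 1 (95.0%, genome 93.5%) and 22 of 91 of replicate 2 (24.2%, genome 21.7%). In MDA-MB-453 it held for 29 of 29 (100.0%, interval 88.1 to 100.0), against 99.3%. ERBB4 alone held 23 of the 48 sites in T47D and 17 of the 29 in MDA-MB-453, and the intervals treat sites as independent. The 4 T47D exceptions were the TGFA start, a site in EGFR 8.3 kb from its start, one in ERBB4 100.7 kb from its start and one between EREG and AREG. In the TGFA, EGFR and ERBB4 regions T47D FOXA1 replicate 1 had a peak, at 25.1, 28.1 and 28.7, and replicate 2 had none. The region between EREG and AREG had no FOXA1 peak in any line.

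Seen from FOXA1, 44 of 167 sites in the windows overlapped TLE3 in T47D (26.3%, genome 21.9%), 19 of 101 in SKBR3 with replicate 1 (18.8%, genome 20.9%) and 29 of 190 in MDA-MB-453 (15.3%, genome 15.8%). With SKBR3 TLE3 replicate 2 the count was 22 of 101 (21.8%, genome 22.4%). The genome shares lay within the exact 95% intervals of the members' shares, so a difference was not detectable at this number of sites. These were 19.8 to 33.7 in T47D, 11.7 to 27.8 and 14.2 to 31.1 in SKBR3 with replicates 1 and 2, and 10.5 to 21.2 in MDA-MB-453. The intervals treat sites as independent, though ERBB4 alone held 86 of the sites in T47D, 26 in SKBR3 and 106 in MDA-MB-453. The pooled shares thus speak in large part for that gene. FOXA1 sites with TLE3 were the higher ranked ones. Their median percentile was 94.9 against 53.2 for sites without TLE3 in T47D, 77.5 against 49.9 in SKBR3 with replicate 1, and 92.6 against 51.7 in MDA-MB-453, and over the genome 87.3 against 52.2, 87.5 against 50.6 and 91.7 against 52.1. With SKBR3 TLE3 replicate 2 the medians were closer, at 72.9 against 56.3, and over the genome 66.0 against 56.1.

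**Figure D5:**
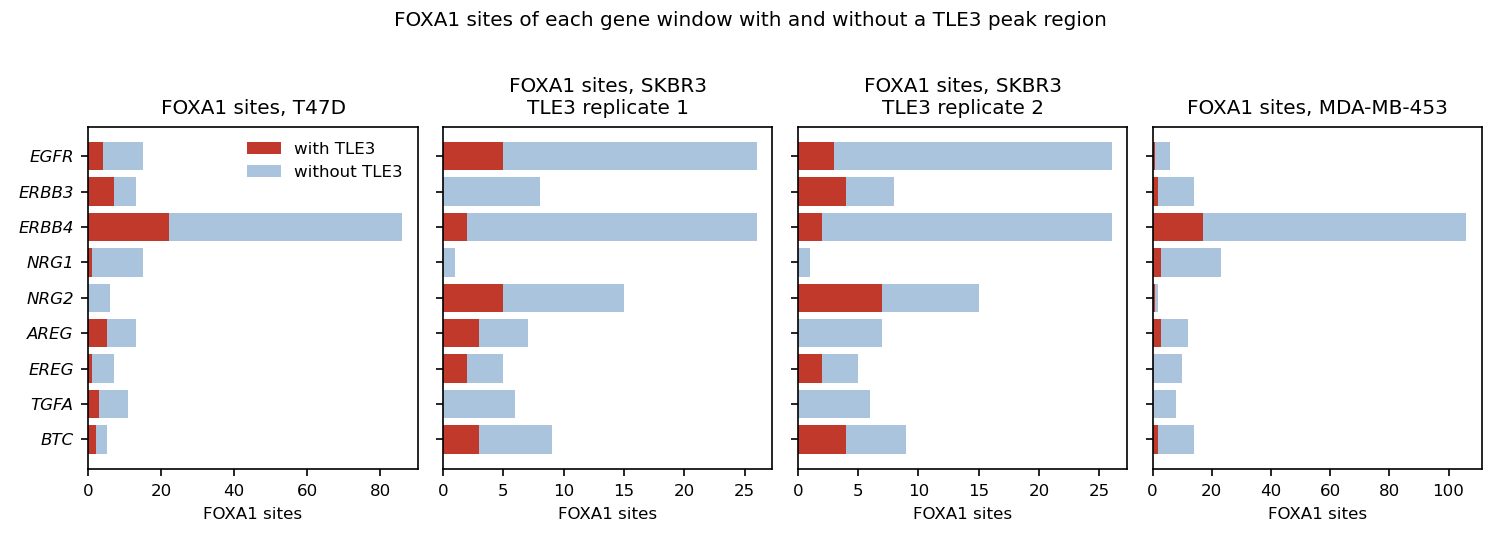
FOXA1 sites of each member (horizontal axis, number of sites, a different scale in each panel) with TLE3 in red and without in light blue; SKBR3 has a panel for each TLE3 replicate. ERBB4 holds 22 of the FOXA1 sites with TLE3 in T47D and 17 in MDA-MB-453, against 2 in SKBR3 with replicate 1.

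Per member, the FOXA1 sites with TLE3 ranged from 0 of 6 (NRG2) to 7 of 13 (ERBB3, 53.8%) in T47D. In SKBR3 with TLE3 replicate 1 they ranged from 0 of 8 (ERBB3), 0 of 6 (TGFA) and 0 of 1 (NRG1) to 3 of 7 (AREG). With TLE3 replicate 2 they ranged from 0 of 7 (AREG), 0 of 6 (TGFA) and 0 of 1 (NRG1) to 4 of 8 (ERBB3). The SKBR3 replicates thus put AREG and ERBB3 in opposite order. In MDA-MB-453 they ranged from 0 of 10 (EREG) and 0 of 8 (TGFA) to 1 of 2 (NRG2). Regions with both factors in all lines, counting SKBR3 TLE3 replicate 1, numbered 2 in AREG, 2 in ERBB4, 1 in EGFR and 1 in BTC, and none in the other 5 members. With both SKBR3 TLE3 replicates required, the BTC gene body region alone was left.

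The wider pathway was counted over 26 genes: 5 further ligands, 2 sheddases that release ligands, 14 transducers and 5 brakes. A FOXA1 site was present for 25 of 26 in T47D, 26 in SKBR3 and 26 in MDA-MB-453, where 95.0%, 89.8% and 95.1% of all genes had one. A TLE3 site was present for 24 in T47D, 10 in SKBR3 and 19 in MDA-MB-453, against 74.7%, 35.3% and 55.3% of all genes. In TLE3 minus FOXA1 2 of 26 were higher (MAPK3, a terminal kinase of the pathway, and the adaptor SHC1) and 1 lower (EGF, the founding ligand), with a median of 0.03 against 0.27 over all genes, of which 16.2% passed. In FOXA1 T47D minus MDA-MB-453 4 of 26 were higher and 6 lower (28.1% of all genes passed), with both sheddases lower (ADAM10 -0.74 ± 0.12 and ADAM17 -2.66 ± 0.34, limma adjusted p = 0.00196 and 0.000519). ADAM17, which releases AREG, EREG and TGFA, was the 1 pathway gene without a FOXA1 site in T47D. In SKBR3 minus MDA-MB-453 7 were higher and 6 lower (45.2% of all genes passed), with HBEGF, a ligand of EGFR and ERBB4, at 1.51 ± 0.24 (limma adjusted p = 0.000742) and NRG3, a ligand of ERBB4, at -2.02 ± 0.09 (limma adjusted p = 3.97e-07). In T47D minus SKBR3 6 were higher and 8 lower (41.5% of all genes passed). For TLE3 in T47D minus MDA-MB-453 2 of 25 tested were higher (AKT1 and STAT3) and 1 lower (CBLB), where 20.4% of all genes passed. In the interaction 2 of 26 were higher (ADAM17 and AKT1) and none lower, where 7.89% of all genes passed.

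By Pearson correlation of log2 peak share over 11 libraries (all but SKBR3 TLE3 replicate 2), the genes most like EGFR were NINJ2 (r = 0.976), ZBED5 (0.970) and CMIP (0.969). For ERBB3 they were CLTB (0.989), ARL10 (0.985) and IER5L (0.959), and for ERBB4 RTTN (0.984), MYO1D (0.974) and NRG3 (0.974). CLTB and ARL10 overlap on chromosome 5, so their windows share peaks. The 11 libraries share lines and factors, and the values are descriptions of likeness only.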

How the data were processed

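Each TLE3 and FOXA1 library came as the authors' own deposited peak list with a score for each peak; what the score measures is not given in the sources used here, and depth per list is unknown. The submitters' processing notes name Trim Galore, SAMtools, MACS2 and BWA (0.7.5a) and the hg38 build, with no settings. The 6 input samples were not analysed here. Scores only ranked peaks within a list. Of 1134209 peaks, 15 outside chromosomes 1 to 22 and X were left out.

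Genes came from RefSeq GRCh38.p14, and start sites from its promoter table. Peak centres were counted per window, and limma 3.58.1 (R 4.3.3, eBayes with trend) was fitted to log2((peaks + 0.5)/(list length + 1) × 10000) over genes with a mean of at least 1 peak per list, with Benjamini-Hochberg adjustment at 0.05 over all genes tested. Overlap meant at least 1 bp. Replicates are labelled biological; what their numbers share is not stated. The scripts were tested on simulated data.

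All 9 members, sites within 1 kb of a start, the best site per factor and line, and pathway genes that passed or lacked a site were to be named; of these sites and genes a part is printed, and 1 EGFR region and the TLE3 sites without FOXA1 were added after their values were seen. Members and lists were chosen with earlier results of these data known. Since depth is unknown, differences in list length and binding cannot be told apart.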

Additional observations from a re-analysis of the deposited data

Results flagged for a closer look

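The difference between TLE3 and FOXA1 in peak share at ERBB3 was larger in T47D than in MDA-MB-453 by 1.35 on the log2 scale (limma interaction, adjusted p = 0.0206), and was singled out because the same contrast gave unlike values in the 2 lines. TLE3 peaks per 10000 were 2.32 and 2.44 in T47D against 0.937 and 0.881 in MDA-MB-453, and FOXA1 peaks 1.02 and 1.01 in T47D against 1.01 and 1.24 in MDA-MB-453. The median of all genes in this contrast was 0.29, and scaled by the median ratio the ERBB3 value was 1.08 (adjusted p = 0.0693). These values are for the whole window, and the gene body held 1 of 7 TLE3 sites in T47D and 2 of 2 in MDA-MB-453.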

How the results depend on the processing

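Of 740 values of single members under alternatives, 75 changed sign; none of these passed as reported, and 4 passed with the changed sign: ERBB3 in FOXA1 T47D minus MDA-MB-453 among the upper 50% by score (0.50, adjusted p = 0.0486), and in the interaction in equally long lists EGFR (-0.29, 4.92e-05), NRG1 (0.36, 1.33e-05) and AREG (-0.36, 3.68e-05). The FOXA1 calls of EGFR, ERBB4, NRG1 and NRG2 between SKBR3 and another line held under every alternative in which the gene was fitted. So did that of EGFR in T47D minus MDA-MB-453. NRG2 was not fitted in equally long lists, where its FOXA1 peaks fell under the mean of 1 per list. Each other call of a member was lost under at least 1 alternative. Calls were also gained without a change of sign, and only a part of these are named. They numbered 8 in equally long lists, 3 with a prior of 2 peaks and 2 by median ratio. There were 2 among the upper 50% by score, 1 in 10 kb windows and 1 with the replicate block, and further ones with a library left out. The prior of 2 peaks by construction raises values of shorter lists more than those of longer ones at an equal share. How large a part this had in each change was not tested. The cause was not tested for the other changes. In the fits with a library left out, the lone library of its group is assumed to vary like the other groups.

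Counts of genes passing limma moved by over 1.5 times as follows. For TLE3 minus FOXA1 (3084, 88.5% higher), 14339 passed with a prior of 2 peaks, 1860 scaled by the median ratio (49.5% higher, median -0.05 against 0.27) and 1024 in equally long lists; leaving out a library gave 1889 to 4708, by over 1.5 times without T47D FOXA1 replicate 1 (2012) or 2 (1889), SKBR3 FOXA1 replicate 2 (2053) and SKBR3 TLE3 replicate 2 (4708). For FOXA1 T47D minus MDA-MB-453 (5395), 2871 passed in 10 kb windows and 2240 to 4988 with a library left out, the lowest lacking MDA-MB-453 FOXA1 replicate 2 (lacking replicate 1, 2892). For SKBR3 minus MDA-MB-453 (8671), 4416 passed in equally long lists and 5691 to 9104 with a library left out, the lowest without MDA-MB-453 FOXA1 replicate 2. For T47D minus SKBR3 (7957), 4218 passed in equally long lists and 5074 in 10 kb windows, and 5494 to 7175 with a library left out. For TLE3 T47D minus MDA-MB-453 (3212), 448 passed with a prior of 2, 1315 among the upper 50% by score and 1038 in 10 kb windows, and 313 to 2914 with a library left out (313 without T47D TLE3 replicate 1, 539 without 2, 2039 without MDA-MB-453 TLE3 replicate 2). For the interaction (1490), 124 passed with a prior of 2, 820 by median ratio (58.4% higher against 85.4%), 793 among the upper 50%, 2308 in equally long lists and 505 in 10 kb windows, and 244 to 3036 with a library left out: without FOXA1 replicates 1 and 2, 669 and 260 for T47D and 244 and 463 for MDA-MB-453, without T47D TLE3 replicate 2 2290, and without MDA-MB-453 TLE3 replicate 1 3036.

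In TLE3 minus FOXA1, signs changed for EREG (0.35) and TGFA (0.34) with a prior of 2, EGFR (-0.18), ERBB3 (-0.12), NRG1 (-0.15), AREG (-0.09) and BTC (-0.05) by median ratio, EGFR (-0.37), ERBB3 (-0.19), AREG (-0.43) and BTC (-0.81) in equally long lists and EGFR (-0.17) in 10 kb windows. Leaving out a library gave NRG1 -0.20 to 0.44, AREG -0.10 to 0.75 and ERBB3 -0.08 to 0.66. In FOXA1 T47D minus MDA-MB-453, signs changed for ERBB3 (0.50), ERBB4 (0.09) and EREG (-0.19) among the upper 50%, ERBB3 (0.18) and ERBB4 (0.42) in equally long lists and ERBB3 (0.11), ERBB4 (0.01) and EREG (-0.37) in 10 kb windows. Leaving out a library gave AREG -0.02 to 0.57, EREG -0.21 to 0.34, ERBB3 -0.28 to 0.01 and ERBB4 -0.16 to 0.11. In FOXA1 SKBR3 minus MDA-MB-453, signs changed for BTC (0.04) with a prior of 2, AREG (0.25), TGFA (-0.19) and BTC (0.26) among the upper 50% and AREG (0.23) and BTC (0.08) in 10 kb windows. Leaving out a library gave AREG -0.52 to 0.07, EREG -0.51 to 0.04, ERBB3 -0.54 to 0.11 and BTC -0.15 to 0.10. In FOXA1 T47D minus SKBR3, signs changed for EREG (-0.26) in 10 kb windows. Leaving out a library gave ERBB3 -0.25 to 0.41. In TLE3 T47D minus MDA-MB-453, signs changed for ERBB4 (-0.12) by median ratio, AREG (-0.04) among the upper 50% and AREG (0.00) in equally long lists. Leaving out a library gave ERBB4 -0.04 to 0.20 and NRG2 -0.78 to 0.90. In the interaction, signs changed for EGFR (-0.42) and AREG (-0.03) with a prior of 2, EGFR (-0.28), ERBB4 (-0.17) and AREG (-0.12) by median ratio, EGFR (-0.52), AREG (-0.43), EREG (-0.28) and BTC (0.41) among the upper 50%, EGFR (-0.29), ERBB4 (-0.01), NRG1 (0.36), AREG (-0.36) and BTC (0.85) in equally long lists and BTC (0.47) in 10 kb windows. Leaving out a library gave EGFR -0.29 to 0.29, AREG -0.16 to 0.48, ERBB4 -0.03 to 0.24 and BTC -0.66 to 0.37.

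Equally long lists were cut to 21149 peaks each, the length of the shortest list. How far the small p there rest on the trend of limma was not tested.

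Members with a TLE3 site in SKBR3 numbered 1 among the upper 50%, 0 in equally long lists and 9 with either replicate; leaving out a replicate gave 6 to 9. TLE3 sites at FOXA1 came to 74.2% in T47D and 85.7% in MDA-MB-453 in equally long lists, and 41.5% in SKBR3 with either replicate; no SKBR3 value exists in equally long lists, where no site was left. FOXA1 sites at TLE3 came to 63.9% in T47D, 0% in SKBR3 and 62.1% in MDA-MB-453 in equally long lists, and 31.2% in SKBR3 with either replicate. Leaving out a replicate, TLE3 sites at FOXA1 ranged over 76.5% to 97.9% in T47D and 24.2% to 100.0% in SKBR3, and FOXA1 sites at TLE3 over 19.7% to 43.1% in T47D, 4% to 21.8% in SKBR3 and 10.8% to 30% in MDA-MB-453. The T47D values farthest off came without TLE3 replicate 1 (76.5% and 43.1%), and the MDA-MB-453 one without TLE3 replicate 2 (30.0%).

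The replicate numbers gave little sign of pairing in peak share. Over the 15 pairs of groups the correlation of same-numbered deviations lay between -0.15 (MDA-MB-453 FOXA1 with SKBR3 TLE3) and 0.192 (T47D TLE3 with SKBR3 TLE3), and no other was over 0.1. Such values cannot show what same-numbered libraries shared in their handling. With the replicate block the counts were 2838, 5589, 8828, 8190, 2563 and 1767 in the order above; AREG gained a call in FOXA1 T47D minus SKBR3 (0.50, adjusted p = 0.0300; 0.72, 0.0350 without T47D FOXA1 replicate 1) and BTC lost its TLE3 call (-1.26, adjusted p = 0.0809).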
